A study of Mus musculus with 5 samples.

Results

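The 9 genes described here encode channels and receptors that set the contraction and relaxation of the oviduct wall: Ano1, Kcnma1, Kcnn3, P2ry1, Gja1, Oxtr, Adra1a, Chrm2 and Ednra. They were chosen by name, with earlier results of these data known, and all 9 were among the 23857 genes of the deposited table. RNA was sequenced from YFP-positive oviduct (fallopian tube) cells, sorted by fluorescence from 5 females described as young adults, with 1 library per mouse. The 2 control mice carried Pdgfra-Cre and the Rosa26-YFP (R26Y) reporter. The 3 mice of the other group carried both of these and floxed Esr1 alleles on both chromosomes (Esr1(fl/fl)). Pdgfra-Cre is a recombinase under the promoter of Pdgfra, a receptor gene of mesenchymal cells, so deletion and YFP marking are limited to cells with a history of that promoter's activity. Esr1 encodes estrogen receptor alpha, a hormone-activated transcription factor. The comparison asks which of these genes differ in oviduct stroma when Esr1 is deleted there. The libraries labelled so are called control 2 and 3 and knockout 1, 2 and 3, after the mouse numbers.

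The oviduct moves eggs and embryos by waves of smooth muscle contraction as well as by cilia. In visceral muscle, pacemaker cells depolarise through the calcium-activated chloride channel of Ano1. Interstitial cells that express PDGFRA respond to purines through the receptor of P2ry1 and hyperpolarise through the small-conductance potassium channel of Kcnn3. Gap junctions of connexin 43, the product of Gja1, join cells electrically, and hormones and nerves act through receptors such as those of Oxtr, Adra1a, Chrm2 and Ednra. Estrogen is known to raise Oxtr and Gja1 in the uterine muscle.

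The proximal promoters of 3 genes are shown because the Esr1 product binds DNA at promoters and enhancers, and because these genes carry the main observations: Oxtr and P2ry1 had the smallest p-values of the 9, and Gja1 had the highest level. Sequences are from RefSeq, build GRCm38.p6 (the labels name mm10, the same assembly), 5′ to 3′ on the gene's strand, and end before the gene's first annotated exon. Capitals mark matches to the motifs named after them. The stretches lie at chr6:112489944-112490075 on the minus strand for Oxtr, chr3:61002535-61002784 on the plus strand for P2ry1 and chr10:56377050-56377299 on the plus strand for Gja1.
Oxtr: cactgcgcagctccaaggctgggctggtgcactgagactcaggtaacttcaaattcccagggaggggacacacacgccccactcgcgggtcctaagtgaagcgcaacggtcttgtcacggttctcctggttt
P2ry1: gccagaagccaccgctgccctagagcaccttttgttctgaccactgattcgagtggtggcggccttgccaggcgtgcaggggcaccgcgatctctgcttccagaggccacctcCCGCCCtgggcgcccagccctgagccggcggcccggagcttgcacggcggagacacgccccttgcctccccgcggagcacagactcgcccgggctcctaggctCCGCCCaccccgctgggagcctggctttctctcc
Gja1: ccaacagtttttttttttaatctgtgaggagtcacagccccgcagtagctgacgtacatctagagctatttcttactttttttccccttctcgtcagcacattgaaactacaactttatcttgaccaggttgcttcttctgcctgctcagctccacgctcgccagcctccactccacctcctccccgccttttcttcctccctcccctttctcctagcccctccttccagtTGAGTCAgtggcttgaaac

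In the 250 bases before the start site, both strands were searched for the palindromic core of the estrogen response element, AP-1 (TGANTCA), the GC box (GGGCGG) and the TATA box (TATAAA). A promoter was held by the table for 8 of the 9 genes, all but Adra1a. The estrogen response element core was found in 0 of the 8 and in 0.0639% of all 32851 promoters, and the TATA box in 0 of the 8 and in 12.4% of all. The core is so rare in promoters of this length that its absence from 8 of them tells nothing about these genes. An AP-1 match was found for 1 gene, Gja1, 13 to 19 bases before its start, against 6.75% of all promoters. GC boxes were found for 5 of the 8 (Ano1, P2ry1, Kcnma1, Oxtr and Chrm2), against 32.7% of all. That of Oxtr lies 44 to 49 bases before the listed start, in a part that overlaps its first exon in GENCODE and is not shown. The last box of Ano1, 12 to 17 bases before its listed start, also lies in a part that overlaps an exon. In GENCODE the starts of Ano1 and Kcnma1 lie farther upstream, so the searched bases of both are inside these genes. GC boxes of P2ry1 lie 29 to 34 and 132 to 137 bases before its start. These are matches of letters and do not show binding.

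Levels are in TPM, a share of the library's transcripts scaled for transcript length, so levels can be compared between genes. TPM does not keep the number of reads, so no counting error is given. Genes with at least 1 TPM in at least 2 libraries were tested, 19292 in all, and each of the 9 genes was at 1.24 TPM or more in all 5 libraries. Between 15841 and 19432 genes reached 1 TPM in a library, and the non-coding RNA Rpph1 took 13.1% to 22.3% of all TPM. Esr1, whose level checks the labels, was at 83.3 and 77.6 TPM in the control mice and at 28.9, 85.0 and 170 TPM in knockout 1, 2 and 3. It was below both controls in knockout 1 alone and thus goes against the label in the other 2 libraries. Values per gene do not show whether the floxed exon was missing. All directions below therefore refer to libraries labelled knockout. Pdgfra was at 188 to 225 TPM in the control mice and 165 to 298 TPM in the libraries labelled knockout.

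None of the 9 genes differed between the groups at an adjusted p under 0.05 (limma, Benjamini-Hochberg over all tested genes), where 0.0259% of tested genes did (0.0104% called higher, 0.0156% called lower with the knockout label). At an unadjusted p under 0.05 there were 2 of 9, against 13.6% of tested genes: Oxtr, lower in the libraries labelled knockout, and P2ry1, higher. The 3 libraries labelled knockout lay above both controls for 3 genes, Ano1, P2ry1 and Chrm2 (11.9% of tested genes), and below both for 1, Oxtr (21.9% of tested genes). Together these are 4 of 9 genes without overlap, beside 33.9% of tested genes. Of the 9, 4 had a log2 fold change above 0 and 5 below, beside 47.8% and 52.2% of tested genes. The median of the 9 was -0.01, and that of all tested genes was -0.02. Fold changes below are those of TPM + 1 on the log2 scale, knockout over control, which understates changes of low genes.

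**Figure D1:**
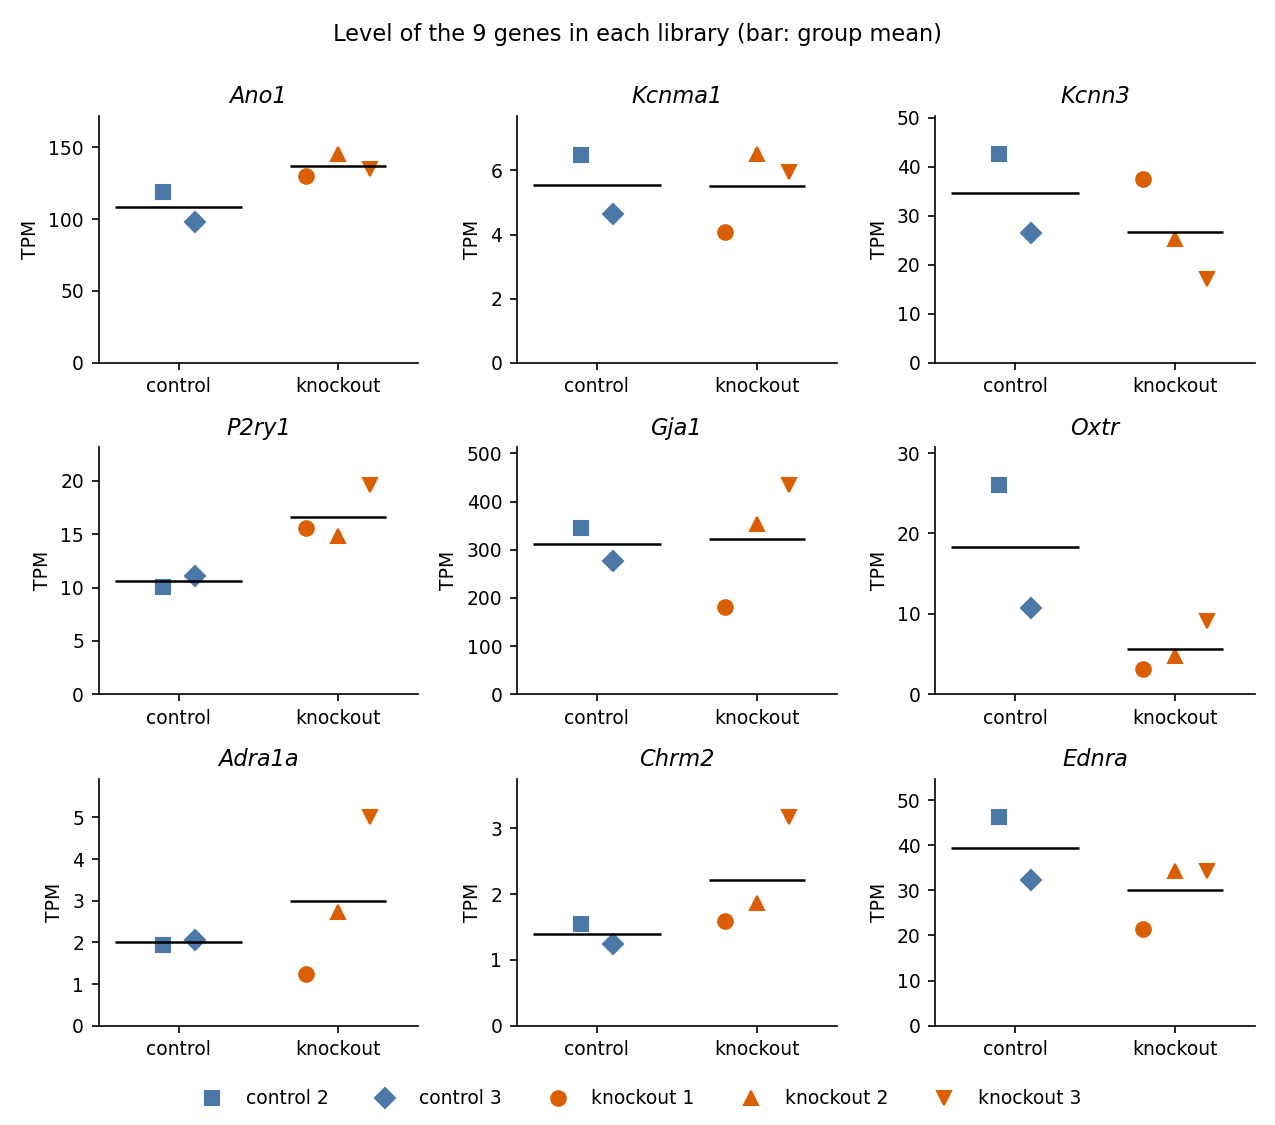
Level of the 9 genes (TPM, linear axes from 0) in each of the 5 libraries, with blue squares and diamonds for control 2 and 3, orange symbols for knockout 1, 2 and 3, and a bar for each group mean (n = 2 and n = 3). For Oxtr the 3 libraries labelled knockout are the lowest, Ano1, P2ry1 and Chrm2 lie above both, and the groups overlap for the other 5 genes.

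Ano1, the chloride channel, was at 118 and 97.96 TPM in control 2 and 3 and at 130, 146 and 135 TPM in knockout 1, 2 and 3. The lowest library labelled knockout was a little above the higher control, and nearer to it than the controls were to each other. Group means were 108 ± 14.5 TPM (SD, n = 2) against 137 ± 8.09 TPM (SD, n = 3). This gave a log2 fold change of 0.34 (SE 0.16) and a 95% interval of -0.05 to 0.73 (limma, adjusted p 0.410). The exact permutation p over the 10 assignments of the libraries, two-sided, was 0.1, the smallest this design allows. Ano1 had the smallest spread of the 9 genes over the 5 libraries, 1.49-fold from lowest to highest. Kit, Etv1 and Prkcq, used as markers of interstitial cells of Cajal, summed to 43.5 and 35.5 TPM in control 2 and 3 and 32.2, 69.6 and 90.7 TPM in knockout 1, 2 and 3. Most of that spread was in Kit, at 22.5 and 16.3 against 11.5, 45.9 and 69.5 TPM, while Etv1 stayed within 16.1 to 20.3 TPM and Prkcq within 2.32 to 4.12 TPM. Their part in the Ano1 values was not tested.

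Kcnma1 encodes the pore of the large-conductance calcium-activated potassium channel, which limits contraction. Its level was 6.48 and 4.63 TPM in the control mice and 4.08, 6.52 and 5.96 TPM in knockout 1, 2 and 3. The groups covered the same range, and the fitted change was -0.01 (log2), with a 95% interval of -0.67 to 0.64 (limma, adjusted p 0.984). That interval holds changes of 1.5-fold either way, so a change of that size was not detectable here.

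Kcnn3 was at 42.7 and 26.4 TPM in the control mice and at 37.5, 25.3 and 17.1 TPM in knockout 1, 2 and 3. Knockout 1 lay between the controls, and knockout 2 was close to control 3. Its log2 fold change was -0.39 with a 95% interval of -1.22 to 0.44 (limma, adjusted p 0.609). It was -0.06 without control 2, -0.12 without knockout 3 and 0.01 with an epithelial score in the model, so the size of the difference depends on control 2, on knockout 3 and on that score. The epithelial score of a library is the mean log2(TPM + 1) of the 10 epithelial markers described below.

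P2ry1, the purine receptor that acts ahead of Kcnn3, was at 10.1 and 11.1 TPM in the control mice and at 15.5, 14.8 and 19.6 TPM in knockout 1, 2 and 3. The controls were close to each other, and all 3 libraries labelled knockout were higher. Mean P2ry1 levels were 10.6 ± 0.729 TPM (SD, n = 2) against 16.7 ± 2.58 TPM (SD, n = 3), a ratio of 1.57. In limma this was a log2 fold change of 0.60, SE 0.20, with an unadjusted p of 0.0220 and an adjusted p of 0.308, and by exact permutation p was 0.1. With any 1 of the 5 libraries left out it lay between 0.48 and 0.67. An antisense transcript, Gm37035, covers 23.1% of the exonic bases of P2ry1, and reads of the 2 strands cannot be told apart unless the counting used strand, which the sources used here do not state. P2ry1 and Kcnn3 had fold changes of opposite sign, and the difference between the 2 genes was not tested.

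Gja1 had the highest level of the 9 genes. It was at 345 and 277 TPM in the control mice and at 181, 353 and 434 TPM in knockout 1, 2 and 3. Knockout 1 was the lowest of the 5 libraries and knockout 3 the highest. The means, 311 ± 48.7 TPM (SD, n = 2) and 323 ± 129 TPM (SD, n = 3), differed by less than either spread. The fitted change was -0.03 (log2) with a 95% interval of -0.90 to 0.84 (limma, adjusted p 0.973), and without knockout 1 it was 0.34. The 3 genes whose pattern over the 5 libraries was most like that of Gja1 were Prkce, Misp and Krt7, as given below. Krt7 is a keratin gene of epithelium. With a log2 fold change of -0.02, it was the only 1 of the 10 epithelial markers below 0.

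Oxtr, the receptor of oxytocin, had the largest fold change of the 9. It was at 26.01 and 10.7 TPM in the control mice and at 3.12, 4.71 and 9.09 TPM in knockout 1, 2 and 3. All 3 libraries labelled knockout were below both controls, but knockout 3 was nearer to control 3 than the controls were to each other. On average Oxtr stood at 18.4 ± 10.8 TPM (SD, n = 2) against 5.64 ± 3.09 TPM (SD, n = 3), 3.26-fold apart. In limma Oxtr had a log2 fold change of -1.52, SE 0.48, with a 95% interval of -2.66 to -0.39, an unadjusted p of 0.0157 and an adjusted p of 0.278. By exact permutation p was 0.2. Leaving out control 2 gave -0.92, and leaving out control 3 gave -2.13. The epithelial score as a covariate gave -1.85 (limma, adjusted p 0.199), and a smooth muscle score made the same way gave -1.28 (limma, adjusted p 0.594).

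Adra1a, the alpha-1A adrenergic receptor through which noradrenaline contracts smooth muscle, was at 1.95 and 2.06 TPM in the controls. It was at 1.24, 2.72 and 5.02 TPM in knockout 1, 2 and 3, which lay on both sides of the controls. Its log2 fold change was 0.30 with a 95% interval of -0.71 to 1.31 (limma, adjusted p 0.751), and it was -0.06 without knockout 3.

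Chrm2, the M2 muscarinic receptor of acetylcholine, had the lowest level of the 9 genes. It was at 1.54 and 1.248 TPM in the control mice and at 1.60, 1.86 and 3.18 TPM in knockout 1, 2 and 3. The groups did not overlap, but knockout 1 was only just above control 2. Its log2 fold change was 0.39 with a 95% interval of -0.34 to 1.13 (limma, adjusted p 0.565), and it was 0.19 without knockout 3.

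Ednra, the endothelin receptor of type A, which contracts smooth muscle, was at 46.4 and 32.4 TPM in the control mice and at 21.4, 34.4 and 34.3 TPM in knockout 1, 2 and 3. Knockout 2 and 3 lay between the controls, and knockout 1 was below both. Ednra had a log2 fold change of -0.39 with a 95% interval of -1.03 to 0.26 (limma, adjusted p 0.529). It was -0.17 without knockout 1 and -0.14 without control 2.

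**Figure D2:**
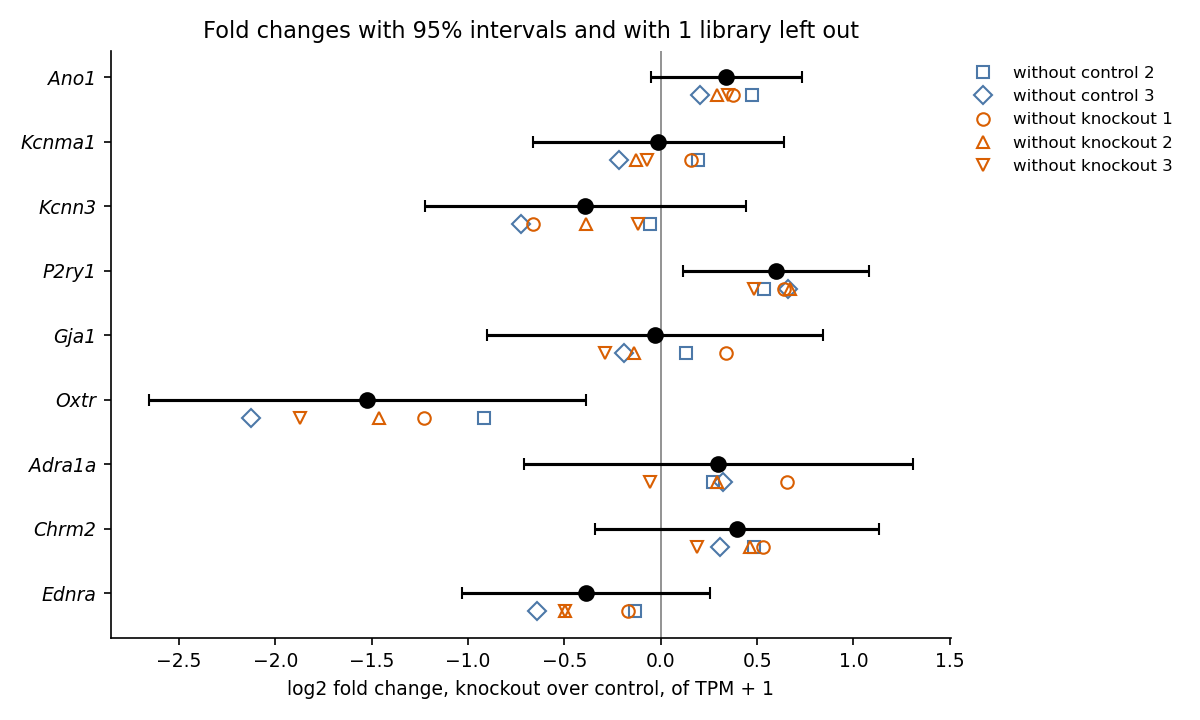
Log2 fold change (knockout over control, of TPM + 1) of the 9 genes with its 95% interval (black, 5 libraries), and below each the value with 1 library left out (open symbols, blue for a control and orange for a library labelled knockout). The interval excludes 0, before adjustment, for P2ry1 and Oxtr alone, and the Oxtr value moves from -2.13 to -0.92 with the control left out.

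In the controls the order of mean levels was Gja1, Ano1, Ednra, Kcnn3, Oxtr, P2ry1, Kcnma1, Adra1a and Chrm2. In the libraries labelled knockout it was the same except that P2ry1 stood above Oxtr. Ednra and Kcnn3 overlapped in both groups. Oxtr and P2ry1 overlapped in the controls and did not in the libraries labelled knockout, where Oxtr overlapped with Kcnma1 and P2ry1 with Kcnn3. In the libraries labelled knockout Adra1a overlapped with Chrm2, Oxtr and Kcnma1, and Chrm2 also overlapped with Oxtr. By mean TPM, Gja1 stood above 98.4% of tested genes, Ano1 above 95.1%, Oxtr above 48.6% and Chrm2 above 18.5%.

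The genes lie on 6 chromosomes in GENCODE M21 (GRCm38). Ano1 lies at chr7:144588549-144751974, Kcnma1 at chr14:23289431-24014491, Kcnn3 at chr3:89520164-89675132, P2ry1 at chr3:61002795-61008982 and Gja1 at chr10:56377330-56402513. Oxtr lies at chr6:112473683-112489943, Adra1a at chr14:66635251-66771168, Chrm2 at chr6:36388084-36528414 and Ednra at chr8:77663031-77724464. Besides P2ry1, opposite-strand genes share 5.98% of the exonic bases of Kcnma1, 2.35% of Chrm2 and 1.66% of Ednra.

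Relatives of the 9 genes and other parts of the contraction pathway were read from 11 lists with 135 genes, of which 124 were tested. None passed an adjusted p of 0.05 in limma. At an unadjusted p under 0.05, 9 were higher (3.7% of tested genes) and 23 lower (9.87%). Genes without overlap between the groups were 13 higher and 40 lower of the 124, beside 11.9% and 21.9% of tested genes. Without knockout 1, the library with low Esr1, 8 of the 124 were higher and 8 lower at an adjusted p under 0.05, where 5.35% and 2.63% of tested genes were. That fit drops the only library labelled knockout with Esr1 below both controls. Of the fits with 1 library left out, it also gave the most calls over all genes, 1022 higher and 502 lower. The 16 genes are named with their lists below as having passed without knockout 1, which describes that fit alone. Knockout 2 and 3, which it keeps, had Esr1 at 85.0 and 170 TPM, against 83.3 and 77.6 TPM in the controls. Their epithelial markers summed to 12066 and 13169 TPM, against 3065 and 3334 TPM in the controls. The part of epithelial RNA in these calls was not tested. Over the 5 libraries the adjusted p of all 124 was 0.111 or more (limma).

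**Figure D3:**
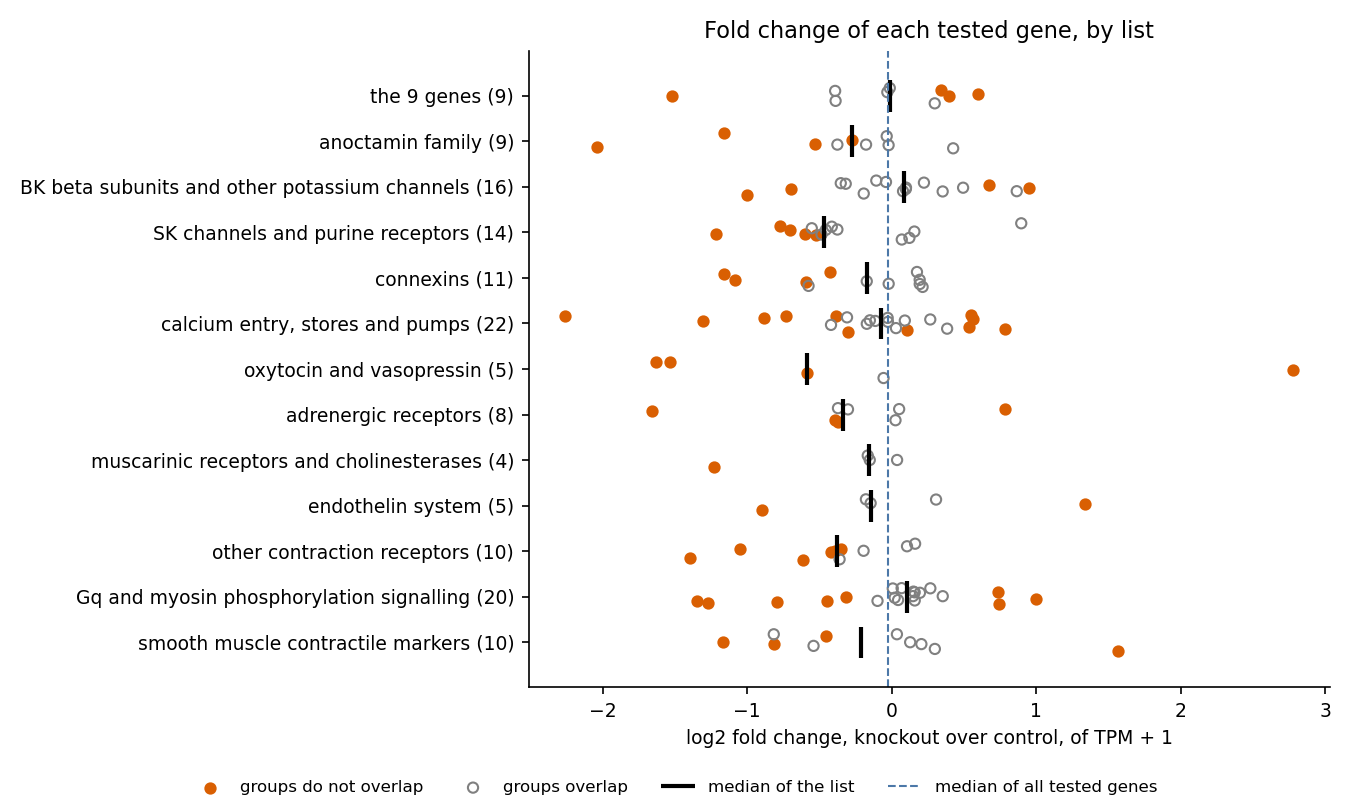
Log2 fold change (knockout over control, of TPM + 1) of each tested gene in the 9 genes and in 12 lists, with the number tested in brackets. Orange dots are genes whose groups do not overlap, the black bar is the median of the list and the dashed line is the median of all tested genes, -0.02. Avpr1a, at 2.78, lies farthest to the right.

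Among oxytocin and vasopressin genes, the receptors Oxtr and Avpr1a had fold changes of opposite sign. Avpr1a, the V1a vasopressin receptor, also bound by oxytocin, was at 9.40 and 10.7 TPM in the control mice and at 176, 76.9 and 30.5 TPM in knockout 1, 2 and 3. All 3 libraries labelled knockout were above both controls and differed widely among themselves. Its log2 fold change was 2.78, SE 0.63 (limma, adjusted p 0.193), and it passed without knockout 1 (2.17, adjusted p 0.0349). The hormone genes Oxt and Avp were low: Oxt was at 2.47 and 6.19 TPM in the control mice and 0.30 to 1.27 TPM in the libraries labelled knockout, and Avp at 4.34 and 4.83 against 0.33 to 1.55 TPM. Of the 5 tested genes of the list 1 had a higher and 4 a lower mean, with a median log2 fold change of -0.59. Lnpep, which breaks down oxytocin, had the highest level of the list, 125 and 109 TPM against 105 to 124 TPM.

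The 3 alpha-1 adrenergic receptors had fold changes of both signs, and differences between them were not tested. Adra1d was at 12.1 and 10.99 TPM in the control mice and at 3.66, 2.81 and 2.53 TPM in knockout 1, 2 and 3, and Adra1b was at 1.30 and 1.853 against 4.09, 2.94 and 3.27 TPM. The groups were apart for these 2 receptors and overlapped for Adra1a. For Adra1d the log2 fold change was -1.66, SE 0.24 (limma, adjusted p 0.111), and it passed without knockout 1 (-1.77, adjusted p 0.0168). That of Adra1b was 0.78 (limma, adjusted p 0.309). Adra1d had the highest control level of the 3, and in the libraries labelled knockout the 3 overlapped. The median log2 fold change of the 8 tested receptors of the list was -0.34, with 3 above 0 and 5 below.

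In the endothelin system, Ednrb, the type B receptor, was at 37.5 and 39.9 TPM in the control mice and at 22.5, 22.2 and 16.9 TPM in knockout 1, 2 and 3. Edn3, a ligand that favours that receptor, was at 3.24 and 4.54 TPM against 8.31, 11.8 and 14.5 TPM. The groups were apart for both and overlapped for Ednra. Their log2 fold changes were -0.90 and 1.34 (limma, adjusted p 0.187 for each), and both passed without knockout 1. Ece1, the converting enzyme, had the highest level of the list, at 80.8 and 66.1 TPM against 73.2 to 106 TPM. Of 5 tested genes, 2 had a log2 fold change above 0 and 3 below.

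Among muscarinic receptors and cholinesterases, Bche, which breaks down acetylcholine and other esters, was the highest of the 4 tested genes. It was at 26.6 and 26.4 TPM in the control mice and at 7.51, 13.5 and 12.1 TPM in knockout 1, 2 and 3 (log2 fold change -1.23, limma, adjusted p 0.187). Bche passed without knockout 1. In the list of other contraction receptors, 2 of 10 genes had a log2 fold change above 0 and 8 below, with a median of -0.38. Agtr2, the type 2 angiotensin receptor, was at 59.3 and 29.1 TPM against 12.95 to 16.6 TPM, and Htr2a, a serotonin receptor, at 9.33 and 11.4 against 2.51 to 9.26 TPM. Neither passed (limma, adjusted p 0.192 and 0.374).

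Most genes listed with P2ry1 had log2 fold changes of the other sign. Of the 14 tested genes in the list of small-conductance potassium channels and purine receptors, 10 had a log2 fold change below 0, with a median of -0.47, and the groups were apart for 5, each lower in the libraries labelled knockout, beside 21.9% of tested genes. P2ry14, a receptor of UDP sugars, was at 49.4 and 51.2 TPM in the control mice and at 24.8, 20.7 and 18.3 TPM in knockout 1, 2 and 3. Its log2 fold change was -1.21 (limma, adjusted p 0.117), and it passed without knockout 1. P2rx1, an ATP-gated channel, was at 3.44 and 3.00 TPM against 1.11 to 1.79 TPM. Entpd2, which breaks down ATP, was the highest of the list, at 101 and 66.9 TPM against 58.2 to 147 TPM. Of the immune markers, 7 of 8 had a log2 fold change below 0, and they summed to 1983 and 2560 TPM in the control mice and 688 to 1503 TPM in the libraries labelled knockout. Their part in these values was not tested.

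Among channels, 8 of the 9 other anoctamins had a log2 fold change below 0, beside 52.2% of tested genes. The median of this list was -0.28. The groups were apart for 4 of its genes, each lower in the libraries labelled knockout, beside 21.9% of tested genes. Ano1 had a log2 fold change above 0, and the difference between Ano1 and the list was not tested. Ano4 was at 37.1 and 48.0 TPM in the control mice and at 4.23, 14.4 and 13.4 TPM in knockout 1, 2 and 3 (log2 fold change -2.04, limma, adjusted p 0.193), and it passed without knockout 1. Ano9 was at 5.33 and 4.98 against 1.25 to 2.44 TPM, and Ano6, the highest of the 9, at 96.0 and 82.6 against 73.2 to 86.6 TPM. Of 16 other potassium channel genes 9 had a log2 fold change above 0, with a median of 0.09. Kcnk2, a two-pore potassium channel, was at 4.70 and 5.22 TPM against 8.47 to 12.2 TPM. Kcnmb3, a subunit that binds the Kcnma1 channel, was at 5.28 and 4.87 against 0.89 to 3.47 TPM. Abcc9, a subunit of ATP-sensitive potassium channels, was the highest, at 28.1 and 33.4 against 21.9 to 51.4 TPM. None of these 3 passed (limma, adjusted p 0.1997, 0.345 and 0.8996).

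Connexins other than Gja1 were each far below it. Gjc1 (connexin 45) had the highest level of the 11 tested, 17.2 and 15.2 TPM in the controls against 13.3 to 19.0 TPM. Gjb5, another connexin, was at 8.42 and 4.02 TPM in the controls against 1.74 to 2.51 TPM, with a log2 fold change of -1.16 (limma, adjusted p 0.241).

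Cacna1c encodes the pore of the L-type calcium channel, the main path of calcium entry in smooth muscle. It was at 21.9 and 15.3 TPM in the control mice and at 6.75, 6.89 and 6.74 TPM in knockout 1, 2 and 3. The 3 libraries labelled knockout were almost equal and less than the lower control. Its log2 fold change was -1.31, SE 0.22 (limma, adjusted p 0.130), and it passed without knockout 1. Of the 22 genes of calcium entry, stores and pumps, 9 had a log2 fold change above 0 and 13 below, and Atp2a2, the calcium pump of the store, was the highest at 222 and 210 against 210 to 252 TPM. Itpr1, Slc8a1 and Cacnb2 passed without knockout 1 as higher, with log2 fold changes of 0.76, 0.82 and 0.73. Over the 5 libraries the values were 0.55, 0.79 and 0.38 (limma, adjusted p 0.369, 0.198 and 0.603), and for Cacnb2 the groups overlapped, with knockout 1 below both controls.

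Of 20 genes of Gq and myosin phosphorylation signalling, 14 had a log2 fold change above 0 and 6 below, with a median of 0.11. Gucy1a1 and Gucy1b1, the subunits of the nitric oxide receptor guanylate cyclase that relaxes smooth muscle, had the largest changes without overlap. Gucy1a1 was at 72.0 and 61.8 TPM in the control mice and at 19.2, 32.65 and 26.8 TPM in knockout 1, 2 and 3. Gucy1b1 was at 26.4 and 22.4 TPM against 6.59, 11.99 and 10.8 TPM. All 3 libraries labelled knockout were below the controls for both subunits, with log2 fold changes of -1.35 and -1.27 (limma, adjusted p 0.141 and 0.187), and both passed without knockout 1. Gnaq, Gna11 and Plcb4, which carry signals from receptors such as those of Oxtr and Adra1a, had log2 fold changes of 0.83, 0.54 and 0.84 without knockout 1 and passed there. Over the 5 libraries these were 0.73, 0.35 and 0.74 (limma, adjusted p 0.193, 0.491 and 0.210), and for Gna11 knockout 1 lay between the controls. Rhoa was the highest of the list, at 406 and 363 TPM against 372 to 469 TPM.

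**Figure D4:**
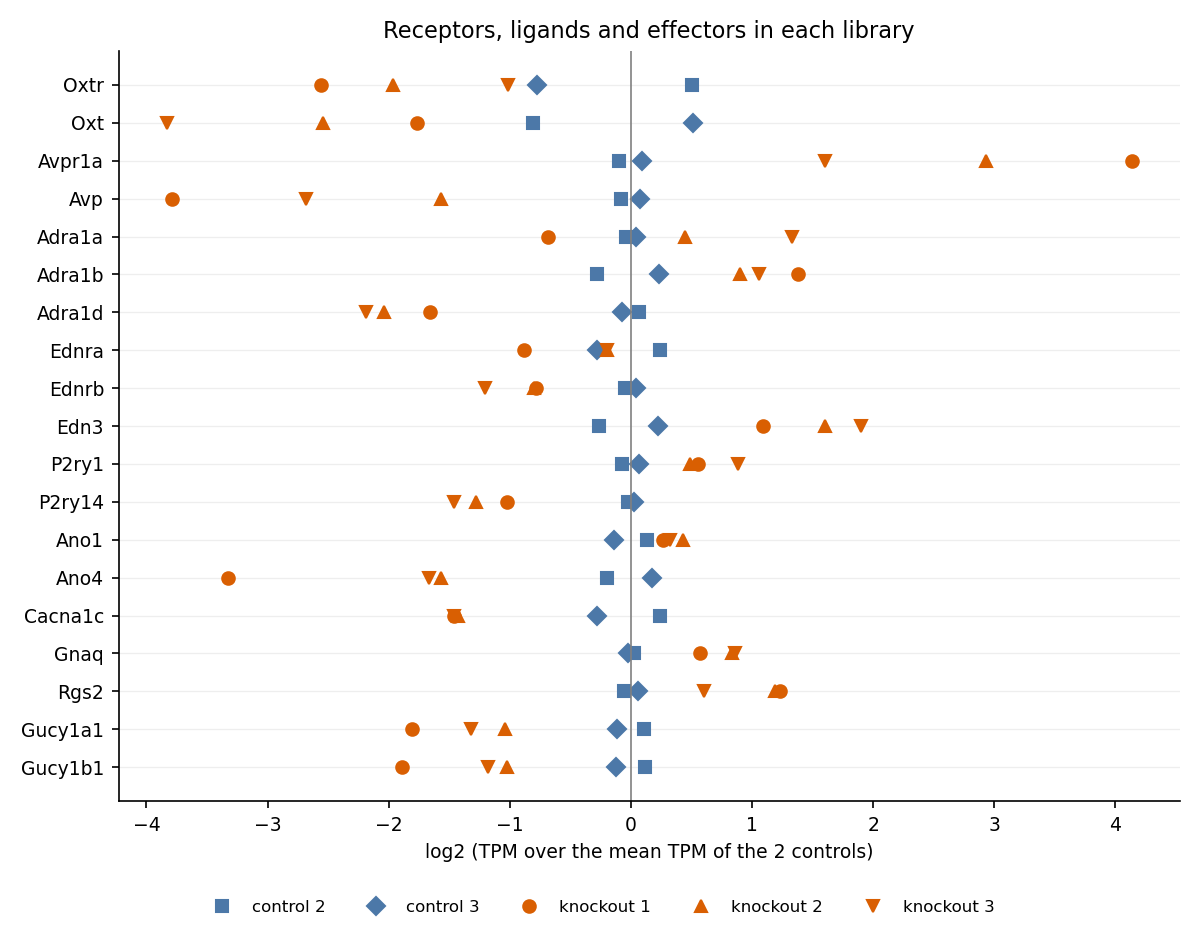
Level of 19 receptors, ligands, channels and effectors in each library, as log2 of TPM over the mean of the 2 controls (blue, controls; orange, libraries labelled knockout). The genes were picked for display after their values were seen. Avpr1a lies to the right and Oxtr to the left of the controls, Adra1b and Adra1d lie on opposite sides, and Cacna1c, Gucy1a1 and Gucy1b1 lie to the left in all 3 libraries labelled knockout.

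Markers of the cells that could carry these transcripts were compared over the same libraries. The 10 smooth muscle contractile markers, whose genes were detected in all libraries, summed to 675 and 456 TPM in the control mice and to 555, 512 and 491 TPM in knockout 1, 2 and 3, within the range of the controls. Of the 10, 5 had a log2 fold change above 0 and 5 below. All 3 libraries labelled knockout lay below both controls for 3 (Actg2, Smtn and Synpo2), beside 21.9% of tested genes. They lay above both for 1 (Myocd), beside 11.9%. Acta2 was the highest, at 279 and 171 against 227 to 264 TPM, and made up the largest part of each sum. Myocd, a co-activator of smooth muscle genes, was at 3.82 and 3.66 against 7.87, 20.9 and 13.2 TPM, and Synpo2, an actin-binding protein, at 35.5 and 19.5 against 10.1 to 12.4 TPM. The 9 stromal markers summed to 23209 and 18623 TPM in the control mice and 11808 to 15624 TPM in the libraries labelled knockout, with a log2 fold change below 0 for 7 of 9. Defining stromal markers were thus present in every library, beside transcripts of other cell types. In bulk RNA, fewer cells of a type and less RNA per cell cannot be told apart.

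Epithelial markers stood apart between libraries of the same label. They summed to 3065 and 3334 TPM in the control mice and to 2163, 12066 and 13169 TPM in knockout 1, 2 and 3, with 9 of 10 above 0 in log2 fold change. Most of each sum was Ovgp1, the oviduct glycoprotein gene. Mast cell markers, 5 of 5 below 0, summed to 301 and 370 TPM against 58.0 to 90.9 TPM, and Fcer1a was listed at 0 in knockout 3. Mesothelial markers, 3 of 4 below 0, summed to 567 and 485 TPM against 306 to 422 TPM. Endothelial markers summed to 209 and 236 TPM against 155 to 261 TPM, pericyte markers to 131 and 140 against 93.0 to 125 TPM, and glial and neuronal markers to 23.8 and 26.02 against 27.6 to 102 TPM. Of the 8 glial and neuronal markers 4 had a log2 fold change above 0 and 4 below, and most of the higher sum was in S100b, at 4.57 and 4.03 against 4.30, 29.5 and 72.2 TPM. With the epithelial score in the model, the log2 fold change of Ano1 was 0.31, that of P2ry1 0.52 and that of Gja1 -0.48. The part of the other cell types in the values of the 9 genes was not tested.

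**Figure D5:**
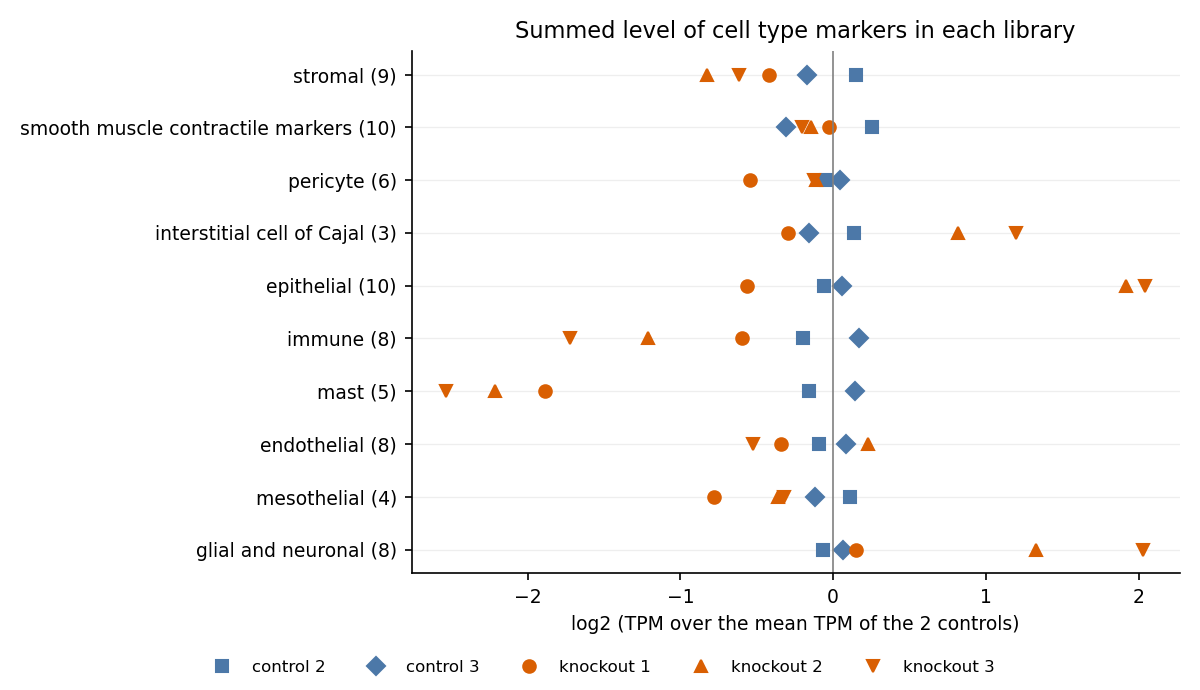
Summed TPM of 10 lists of cell type markers in each library, as log2 over the mean of the 2 controls, with the number of genes in brackets (blue, controls; orange, libraries labelled knockout). Smooth muscle markers of the libraries labelled knockout lie between the controls, mast cell and immune markers lie to the left, and epithelial markers lie to the right in knockout 2 and 3 and to the left in knockout 1.

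For each of the 9 genes, the 3 genes most like it in pattern were found among 12154 genes with a mean of at least 5 TPM, by the root-mean-square difference of centred log2 values over the 5 libraries. For Oxtr they were Ak5, Zfp469 and Col6a4, at 0.20, 0.21 and 0.24, the least close of the 9. For P2ry1 they were Deptor, Mrpl18 and Calcoco1 (0.05 to 0.07), for Ano1 Epn2, Clpx and Arrdc2 (0.02 to 0.03) and for Kcnn3 Rnase4, Egfr and Csf1 (0.06 to 0.08). For Gja1 they were Prkce, Misp and Krt7 (0.05 to 0.06), for Ednra Kcnj8, Gpsm2 and Nedd4l (0.05 to 0.07) and for Kcnma1 Strn4, Dis3l2 and Sec61a1 (0.04). For Adra1a they were C1qtnf2, Timm8b and Mrps28 (0.06 to 0.08), and for Chrm2 Smdt1, Nr1d2 and Selenok (0.04). With 5 libraries many genes come this close, and the likeness is a description.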

How the data were processed

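The deposited table holds TPM per gene, made by the authors, for 5 libraries, each summing to 1000000. STAR is in the table's name and mm10 is the build per the submitters' processing notes; the version, gene counter, annotation and strand setting are not given in the sources used here. Per the labels, libraries were made from total RNA of sorted cells with a low-input SMARTer kit. TPM is a share, so abundant genes lower the others.

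Log2(TPM + 1) was fitted with limma 3.58.1 in R 4.3.3 (eBayes with trend, genotype as the only term). Genes with 1 TPM or more in 2 libraries or more were tested, two-sided, at an adjusted p of 0.05. The fit was run on data simulated with its own variances and independent noise in each library. That checks the code and not how well the test holds for these libraries. Members and lists were chosen with earlier results of these data known. The genes named are the 9, Esr1, Pdgfra and, in each list, genes past the threshold, the highest by mean TPM, and the 2 largest changes without overlap at a mean of at least 1 TPM; others (Oxt, Gnaq, Gna11, Plcb4, Itpr1, Slc8a1, Cacnb2 and single cell type markers) were named after their values were seen. Some genes that this rule names are not reported here. Promoters are from RefSeq (GRCm38.p6), positions from GENCODE M21. The 19 alternatives changed the pseudocount, filter, scaling, variance model, covariates, threshold and libraries. Mouse numbers are shared by 2 pairs of libraries, and the labels do not say that they mark a common origin. Python 3.11.15 was used for sequences and figures.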

Additional observations from a re-analysis of the deposited data

How the results depend on the processing

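For the 9 genes, 153 of 169 alternative values kept sign and call, 15 changed sign and 1 passed the threshold. Ano1, P2ry1, Oxtr, Chrm2 and Ednra kept their sign in all alternatives run; the adjusted p of Oxtr ran from 0.0804 to 0.872 and that of P2ry1 from 0.0865 to 0.897. For the other named genes 588 of 658 values were unchanged in this sense, 44 passed and 26 changed sign. Fits without a control rest on 1 control, assumed to vary like the other group. The cause of these changes was not tested. Precision is limited by 2 control mice; TPM gives no depth.

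The mouse number as a replicate block rests on mice 2 and 3 alone, since mouse 1 has no partner. Deviations of same-numbered libraries from their group means correlated at -0.06 and -0.07 across genes. The deviations of the 2 controls mirror each other, so these values cannot tell whether same-numbered libraries share an origin. The block gave 1165 higher and 693 lower genes, 9 higher and 10 lower pathway genes and 1 of the 9 genes, Kcnn3 (-0.66, adjusted p 0.0424). It gave a median of the 9 of 0.34, Gja1 0.34, Kcnma1 0.16, Esr1 0.57, Pdgfra -0.074 and Entpd2 -0.23.

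Over all tested genes, 2 were higher and 3 lower at an adjusted p under 0.05. Both counts were 0 with a pseudocount of 0.1, with a mean TPM of at least 5 and with the smooth muscle score. Higher genes were 1 with no filter or robust eBayes, and 0 with median-of-ratios scaling, quantile normalization or eBayes without trend; lower genes were 5 without Rpph1 and Rn45s. Library weights gave 260 and 396 (7 and 9 pathway genes), the epithelial score 54 and 43 (1 and 5), and a threshold of 0.1 gave 14 and 22. Leaving out 1 library gave 0 to 1022 higher and 0 to 502 lower genes, and 0 to 8 pathway genes in each direction.

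The median of the 9 was 0.12 with quantile normalization, 0.025 with median-of-ratios scaling, 0.15 with library weights and 0.052 with the smooth muscle score, and -0.19 to 0.34 with 1 library left out. Sign changes with quantile normalization were Kcnma1 0.12, Entpd2 -0.032, Abcc9 -0.015, Atp2a2 -0.026 and Rhoa -0.0041; with median-of-ratios scaling Kcnma1 0.025, Gja1 0.017 and Gjc1 0.025; with library weights Kcnma1 0.12, Gja1 0.15, Esr1 0.15, Entpd2 -0.0041 and Lnpep 0.0066; with the epithelial score Kcnn3 0.010, Adra1a -0.18, Abcc9 -0.30 and Gjc1 0.15; with the smooth muscle score Kcnma1 0.052, Abcc9 -0.067 and Gjc1 0.067. With 1 library left out, Gja1 ranged from -0.29 to 0.34, Kcnma1 -0.22 to 0.19, Adra1a -0.055 to 0.66, Esr1 -0.68 to 0.57, Pdgfra -0.074 to 0.35, Abcc9 -0.22 to 0.38, Acta2 -0.22 to 0.48, Entpd2 -0.23 to 0.43, Gjc1 -0.14 to 0.098 and Lnpep -0.15 to 0.039.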

Other observations

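The following values were computed after the results were seen. Relative to Pdgfra in the same library, a ratio that does not depend on library scaling, Kcnn3 was at 18.9% and 14.1% of the Pdgfra level in control 2 and 3 and at 12.6%, 10.96% and 10.4% in knockout 1, 2 and 3. In this ratio all 3 libraries labelled knockout lay below both controls, which was not so for the Kcnn3 level itself. P2ry1 was at 4.47% and 5.92% of Pdgfra in the controls and at 5.22%, 6.41% and 11.9% in knockout 1, 2 and 3, so that the groups, apart in level, overlapped in this ratio. Ano1 was at 52.6% and 52.2% of Pdgfra in the controls and at 43.5%, 63.0% and 81.9% in knockout 1, 2 and 3, also with overlap. Chrm2, the third gene whose levels were apart, overlapped in this ratio as well, at 0.684% and 0.665% in the controls and 0.536%, 0.806% and 1.93% in knockout 1, 2 and 3. Oxtr, at 11.5% and 5.71% of Pdgfra in the controls, was at 1.05%, 2.04% and 5.51% in knockout 1, 2 and 3, below both controls by either measure. Knockout 1 has the highest Pdgfra level of the 5 libraries and knockout 3 the lowest. The share of tested genes whose groups are apart in this ratio was not computed, so the separations of Kcnn3 and Oxtr have no background beside them.

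Among the 3 libraries labelled knockout, 4 of the 9 genes (Gja1, Oxtr, Adra1a and Chrm2) were lowest in knockout 1 and highest in knockout 3, an order that 26.3% of tested genes share. Esr1 and the sum of the epithelial markers have the same order. Kcnn3 alone of the 9 had the reverse order, as did Pdgfra.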
